A study of Mus musculus with 24 samples.

Results

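The interaction between loss of Cpt2 and loss of Ppara was examined in fasted mouse liver, as the way in which the RNA response to one deletion differed with and without the other. The rule for choosing libraries used only genotype, and it took 16 of the 24 libraries of the series, 4 in each corner of a 2 x 2 design. All animals were labelled as male mice of strain C57BL/6, 8 to 10 weeks old, and livers were taken after 24 h of fasting. The labels give the genotypes as Wild type, Cpt2 L-/-, PPAR-a KO and Cpt2L-/- Ppara KO, and Wild type is called control here. The suffix L marks a deletion in liver, which the study made with a Cre recombinase driven by the albumin promoter, so that cells other than hepatocytes keep Cpt2. The methods of the study describe floxed littermates as controls, where the labels say Wild type. How Ppara was deleted, and from which colony those mice came, is not given in the sources used here. Polyadenylated RNA was sequenced as single 75-base reads and counted on 35275 genes, with 14470968 to 20371204 counts per library.

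Cpt2 is the enzyme of the inner mitochondrial membrane that turns long-chain acylcarnitines back into acyl-CoA, the step that lets long-chain fatty acids enter β-oxidation. Ppara is a nuclear receptor that is activated by fatty acids and binds DNA with its partner Rxra. In the fasted liver it is known for switching on genes of mitochondrial, peroxisomal and microsomal fatty acid oxidation, ketone body synthesis and lipid droplet handling. The question put to each gene was whether the difference made by Cpt2 loss was the same when Ppara was absent. The interaction term is the log2 difference of Cpt2L-/- Ppara KO from PPAR-a KO (the Cpt2 difference without Ppara) minus that of Cpt2 L-/- from control (the Cpt2 difference with Ppara). A negative term means that the Cpt2 difference was smaller, or more negative, without Ppara, and a positive term the reverse. Levels are given as CPM, counts scaled to library size with the TMM factors of edgeR.

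The targeted genes and the libraries that stood apart were described first. Ppara (ENSMUSG00000022383; chromosome 15, 85734983 to 85802819 in GRCm38) was at 214, 261, 270.1 and 271 CPM in control replicates 1 to 4 and at 268, 302, 374.02 and 298 CPM in Cpt2 L-/-. It was at 44.3, 13.2, 12.8 and 37.6 CPM in PPAR-a KO and at 89.2, 25.4, 44.99 and 40.4 CPM in Cpt2L-/- Ppara KO. Every library labelled as lacking Ppara was therefore below every library with Ppara, and replicate 1 of Cpt2L-/- Ppara KO was the highest of those 8. Cpt2 (ENSMUSG00000028607; chromosome 4, 107903981 to 107923610) was at 86.1 to 102 CPM in control and at 78.04 to 103 CPM in Cpt2 L-/-, which overlap. It was at 94.1, 38.5, 49.8 and 46.7 CPM in PPAR-a KO and 122, 37.9, 30.9 and 36.7 CPM in Cpt2L-/- Ppara KO. Counts per gene do not show which exons were read, so the level of Cpt2 does not check its deletion.

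Replicate 1 of Cpt2L-/- Ppara KO stood apart from its group in many Ppara targets, with 3512 CPM of Ehhadh against 128 to 167 CPM in the other 3 libraries, and results are therefore given with and without it. Replicate 1 of PPAR-a KO correlated better with replicate 4 of Cpt2L-/- Ppara KO (r = 0.979 over log2 CPM, across genes) than with its own group (0.945 to 0.958). Replicate 4 of PPAR-a KO had high levels of genes of stratified epithelium, described with those genes. The control corner differed from the other 3 groups in single genes: 8 genes were at least 8-fold above the other 12 libraries in each control library, among them Cd1d2, Rps3a3 and Hist1h2bq, and 1 gene, 3110053B16Rik, was at least 8-fold below. No gene met this rule for any of the other 3 groups. Of the 8 genes, 6 were also high in all 8 libraries of the Tsc1 groups of the series. Because the term is built from the control corner as much as from the other 3, a difference in colony or breeding background of the controls and the interaction cannot be told apart. In bulk liver, fewer cells of a type and less RNA per cell cannot be told apart either.

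Of 13615 genes tested, 3270 (24%) had an interaction at an edgeR adjusted p under 0.05, 1633 of them positive and 1637 negative (12% each), and 37.8% had an unadjusted p under 0.05. Over log2 CPM of the genes tested, Cpt2 status took 17.6% of the variance, Ppara status 23.9% and their product 14.99%, against 3.63% for each residual degree of freedom. Without replicate 1 of Cpt2L-/- Ppara KO, 3096 of 13895 genes (22.3%) passed, 1479 positive (10.6%) and 1617 negative (11.6%). Of the 13615 genes tested with all 16 libraries, 2772 were called in both fits, all with the same sign. A further 498 of them were called only with that library and 299 only without it. The median term of all genes was 0.030 with it and 0.0042 without it, values that the TMM scaling itself holds near 0.

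**Figure D1:**
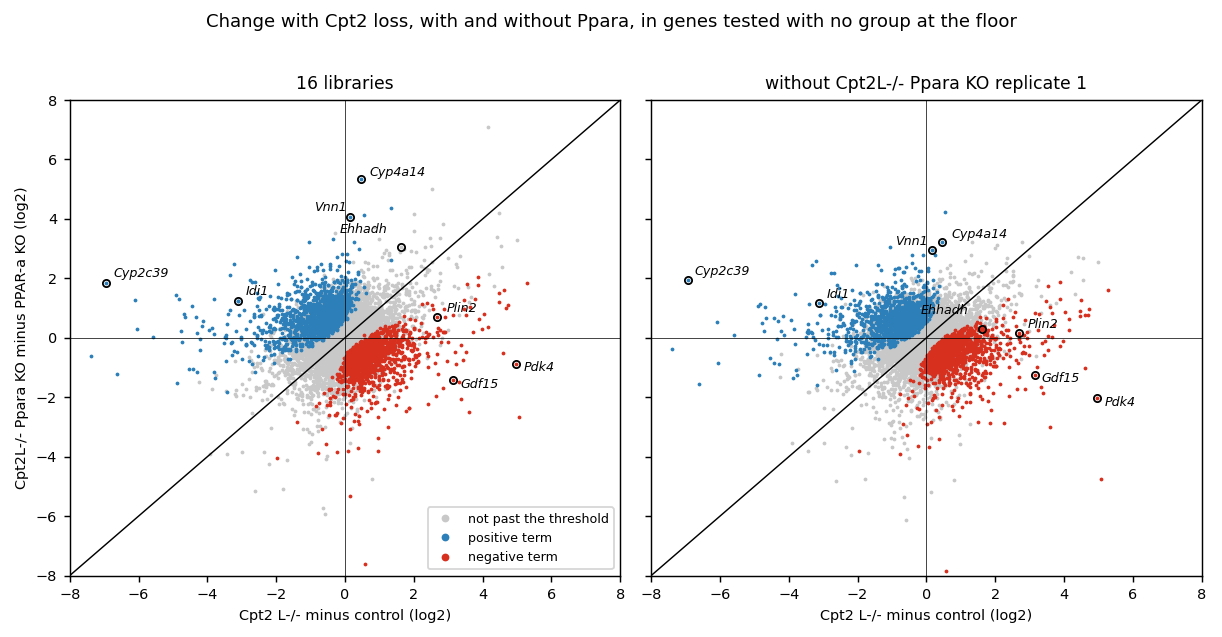
Each point is 1 gene, with the Cpt2 difference with Ppara on the x axis and the Cpt2 difference without Ppara on the y axis (both log2), from all 16 libraries on the left and without replicate 1 of Cpt2L-/- Ppara KO on the right. The interaction term is the vertical distance from the diagonal; genes past the threshold are coloured, 1633 positive and 1637 negative on the left, less the genes with a group at or under 3 counts in every library. Ehhadh moves from above the diagonal to below it when the library is left out, while Pdk4, Gdf15 and Cyp2c39 stay far from it.

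Which corner stood alone was described next, by counting genes in which the 4 libraries of a group lay all above or all below the other 12. Among all genes tested, control lay above in 4.11% and below in 3.86%, Cpt2 L-/- in 2.15% and 1.64%, PPAR-a KO in 2.08% and 2.01%, and Cpt2L-/- Ppara KO in 1.75% and 0.999%. Control alone was high in 319 of the 1633 positive genes, and control alone was low in 298 of the 1637 negative genes. PPAR-a KO alone was low in 180 positive genes and high in 152 negative genes. Cpt2 L-/- alone was low in 114 positive genes and high in 129 negative genes. Cpt2L-/- Ppara KO alone was high in 106 positive genes and low in 63 negative genes. No group stood alone in 963 positive and 1020 negative genes. Of the shapes with a single group apart, control alone was the most frequent in both directions, as it was among all genes tested. A positive interaction was found in 57.1% of the genes with control alone high and in 65.7% of those with PPAR-a KO alone low. A negative interaction was found in 56.8% of the genes with control alone low and in 53.7% of those with PPAR-a KO alone high.

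The 20 reference targets of Ppara were examined whatever their test, and 18 of them are described. With 16 libraries 5 had a positive and 4 a negative interaction (45% of 20, against 24% of all genes tested). Without replicate 1 of Cpt2L-/- Ppara KO the split was 4 positive and 8 negative. The median Cpt2 difference of the targets was 1.36 with Ppara (log2), 1.604 without Ppara, and 0.54 without Ppara when that library was left out, against -0.015, 0.0068 and 0.0024 over all genes. The 5 positive calls fell to 3 without Cpt2 L-/- replicate 1, Cpt2 L-/- replicate 4 or PPAR-a KO replicate 4.

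Plin2 (chromosome 4, 86648386 to 86670060), the protein that coats lipid droplets, was at 363, 475, 589.5 and 532 CPM in control and at 3081, 3014, 2919 and 3547 CPM in Cpt2 L-/-. It was at 1208, 507, 1041 and 679 CPM in PPAR-a KO and 2699.6, 903, 739.8 and 1218 CPM in Cpt2L-/- Ppara KO. Only replicate 1 of the last group came near the Cpt2 L-/- level. The Cpt2 difference was thus 2.68 with Ppara and 0.69 without it (0.15 without replicate 1), and the interaction was -1.99 ± 0.49 (SE; edgeR adjusted p = 0.00936), or -2.53 ± 0.38 (SE; edgeR adjusted p = 0.000376) without that library.

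Pdk4 (chromosome 6, 5483351 to 5496309), the kinase that shuts pyruvate dehydrogenase, had the largest negative term of the targets. It was at 12.6, 20.2, 22.4 and 12.9 CPM in control and at 503, 352, 638 and 639 CPM in Cpt2 L-/-. In PPAR-a KO it was at 22.3, 201, 278 and 16.2 CPM, with replicates 2 and 3 far above replicates 1 and 4. In Cpt2L-/- Ppara KO it was at 185, 49.7, 16.7 and 27.9 CPM, inside the range of PPAR-a KO. The interaction was -5.86 ± 1.18 (SE; edgeR adjusted p = 0.00334), and the term stayed negative and past the threshold in every fit that left out 1 library, from -7.01 to -5.16. Elovl7, an elongase of long-chain fatty acids (chromosome 13, 108214404 to 108287105), was low in control at 0.358 to 1.36 CPM and was at 15.1 to 22.6 CPM in Cpt2 L-/-. It was at 2.14 to 7.78 CPM in PPAR-a KO and 2.502 to 34.4 CPM in Cpt2L-/- Ppara KO, and its interaction was -2.997 ± 0.89 (SE; edgeR adjusted p = 0.0236). The call of Elovl7 was lost with no filter on low counts (edgeR adjusted p = 0.0685) and with limma on log2(FPKM + 1) (adjusted p = 0.103).

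A further 4 targets did not pass with all 16 libraries and passed with a negative term when replicate 1 of Cpt2L-/- Ppara KO was left out. Ehhadh, the bifunctional enzyme of peroxisomal β-oxidation, was at 1999, 4083, 2592 and 4369 CPM in control and at 8318, 9600.03, 10412 and 11890.5 CPM in Cpt2 L-/-. It was at 151, 129, 107 and 94.5 CPM in PPAR-a KO and 3512, 128, 149.7 and 167 CPM in Cpt2L-/- Ppara KO. Replicate 1 lay inside the control range, and the other 3 libraries of its group lay in or near that of PPAR-a KO. The term of Ehhadh was 1.41 ± 1.12 (SE; edgeR adjusted p = 0.376) with that library and reversed to -1.33 ± 0.36 (SE; edgeR adjusted p = 0.0153) without it, so its direction depended on that library. The sign of Ehhadh also changed, with no call, in 2 further alternatives of the processing. Acot1, a cytosolic thioesterase that releases fatty acids from acyl-CoA, was at 929, 102, 58.5 and 92.1 CPM in Cpt2L-/- Ppara KO against 62.9 to 96.2 CPM in PPAR-a KO, 729.6 to 1091 CPM in Cpt2 L-/- and 149.6 to 315 CPM in control. Its term was -0.039 ± 0.88 (SE; edgeR adjusted p = 0.979), or -1.85 ± 0.34 (SE; edgeR adjusted p = 0.0018) without replicate 1. Acot1 has close paralogs, and how reads shared by them were counted is not given in the sources used here. Pex11a, which promotes division of peroxisomes, had a term of -0.53 ± 0.501 (SE), or -1.26 ± 0.28 (SE; edgeR adjusted p = 0.00557) without replicate 1. Cidec, which fuses lipid droplets, was at 28.2 to 62.7 CPM in control, 355 to 669 CPM in Cpt2 L-/-, 29.6 to 112 CPM in PPAR-a KO and 498, 119, 170.3 and 145 CPM in Cpt2L-/- Ppara KO. Its term was -1.87 ± 0.67 (SE; edgeR adjusted p = 0.0529), or -2.56 ± 0.59 (SE; edgeR adjusted p = 0.00768) without replicate 1. It also passed without replicate 2 of PPAR-a KO (-2.08; adjusted p = 0.0391) and without replicate 4 of that group (-2.16; adjusted p = 0.0243), both by edgeR.

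**Figure D2:**
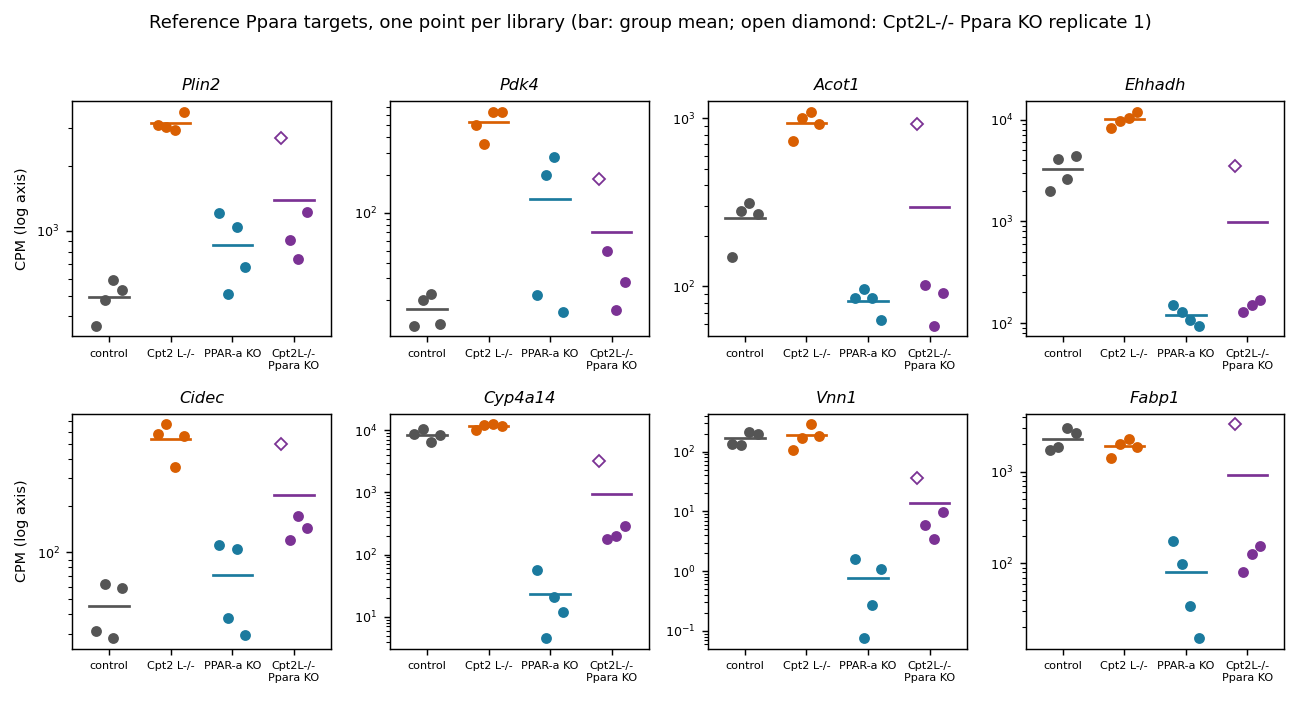
CPM of 8 reference targets on log axes, with 1 point per library, a bar at each group mean and an open diamond for replicate 1 of Cpt2L-/- Ppara KO. Cpt2 L-/- libraries lie above control in Plin2, Pdk4, Acot1, Ehhadh and Cidec, and the diamond lies above the other 3 libraries of its group in each panel.

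Cyp4a14, a microsomal ω-hydroxylase of fatty acids, showed the opposite sign. It was at 8514, 10518, 6470.1 and 8217 CPM in control and at 10089.9, 12112, 12398 and 11566 CPM in Cpt2 L-/-, whereas PPAR-a KO libraries had 56.7, 4.58, 20.6 and 12.04 CPM. In Cpt2L-/- Ppara KO it was at 3156, 179.7, 195 and 289 CPM, above every PPAR-a KO library and below every library with Ppara. The Cpt2 difference was 0.45 with Ppara and 5.34 without it (3.23 without replicate 1), and the interaction was 4.88 ± 1.19 (SE; edgeR adjusted p = 0.00886), or 2.77 ± 0.71 (SE; edgeR adjusted p = 0.0127) without that library. Vnn1, a pantetheinase, had the same order, with 108 to 288 CPM over the 8 libraries with Ppara, 1.61, 0.0764, 0.269 and 1.08 CPM in PPAR-a KO and 36.8, 5.87, 3.49 and 9.76 CPM in Cpt2L-/- Ppara KO. Its term was 3.92 ± 0.93 (SE; edgeR adjusted p = 0.00764), or 2.796 ± 0.69 (SE; edgeR adjusted p = 0.011) without replicate 1. Cyp4a10, a paralog of Cyp4a14 with which it may share reads, was at 19.2 to 157 CPM in PPAR-a KO and 1579.5, 267, 296 and 292 CPM in Cpt2L-/- Ppara KO, with a term of 2.59 ± 0.83 (SE; edgeR adjusted p = 0.0314). The call of Cyp4a10 was lost in 7 of the 16 fits that left out 1 library, with the term at 1.49 and the adjusted p at 0.0894 without replicate 1 of Cpt2L-/- Ppara KO. The other losses were without control replicate 2 (2.36), Cpt2 L-/- replicates 1, 2 and 4 (2.48, 2.59 and 2.599) and PPAR-a KO replicates 3 and 4 (2.56 and 2.43). For these 3 genes the sign depended on the scale: the difference of differences of the group means in CPM was -2181 for Cyp4a14, -1007 for Cyp4a10 and -5.29 for Vnn1. They were 3 of only 7 called genes whose sign on the additive scale was opposite to that on the log2 scale.

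Acadm, the medium-chain acyl-CoA dehydrogenase, had a term of 1.12 ± 0.35 (SE; edgeR adjusted p = 0.0291). The call was lost without control replicate 3 (1.07), Cpt2 L-/- replicate 1 (1.05), Cpt2 L-/- replicate 4 (1.03) and PPAR-a KO replicate 4 (0.903).

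Fabp1, the fatty acid binding protein of liver, was at 1754, 1887, 2997 and 2657 CPM in control and at 1437, 2049, 2279 and 1894 CPM in Cpt2 L-/-. It was at 175, 97.7, 33.7 and 15.3 CPM in PPAR-a KO and 3331, 81.1, 125 and 153 CPM in Cpt2L-/- Ppara KO, where replicate 1 lay above every control library and the other 3 inside the PPAR-a KO range. Its term was 3.796 ± 1.37 (SE; edgeR adjusted p = 0.0535), or 0.85 ± 0.76 (SE; edgeR adjusted p = 0.448) without replicate 1. It passed the threshold when any of the other 3 libraries of that group was left out (4.18, 4.16 and 4.12) or replicate 1 of PPAR-a KO was (4.51), so its call too turned on single libraries. The promoter of Fabp1 is shown because it was the only one, among the 14 reference targets with a promoter searched in the RefSeq table (GRCm38.p6), to hold the letters AGGNCA, any base, and AGGNCA again, on either strand. This is a loose form of the direct repeat bound by Ppara and Rxra, and 0.381% of the 32851 promoters of 300 bases searched held it. The promoters of 1 chromosome were not searched. The 250 bases before the start of Fabp1 are chr6:71199629-71199878, plus strand, with the match, which reads on the minus strand, in capitals.
Fabp1: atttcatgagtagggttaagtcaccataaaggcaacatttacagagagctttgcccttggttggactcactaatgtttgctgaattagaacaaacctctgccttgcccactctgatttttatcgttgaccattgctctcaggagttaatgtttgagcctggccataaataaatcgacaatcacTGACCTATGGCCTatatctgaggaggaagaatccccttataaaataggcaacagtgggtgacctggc
The motif was chosen after the values were seen, and the match is a description of the sequence only.

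For Cpt1a, Fgf21, Plin5, Acaa1b, Angptl4 and Creb3l3 no interaction was detected, with or without replicate 1 of Cpt2L-/- Ppara KO. Over 27 alternatives of the processing, Plin5 and Creb3l3 each passed in 1 and Acaa1b in 3. Cpt1a, which makes the acylcarnitines that Cpt2 uses, was at 1058, 1538, 1052 and 1365 CPM in control and at 1233, 1779, 1674 and 1730.4 CPM in Cpt2 L-/-. Cpt1a was at 851, 725, 499.6 and 698 CPM in PPAR-a KO and at 592, 853, 1291 and 813 CPM in Cpt2L-/- Ppara KO. Its term was near 0, with a 95% confidence interval of -0.73 to 0.73, and no interaction was detectable within it. Fgf21, the fasting hormone of liver, was at 4.35, 12.1, 8.09 and 10.5 CPM in control and at 60.02, 41.1, 36.6 and 63.7 CPM in Cpt2 L-/-, and at 1.83, 0.0764, 0.269 and 0.541 CPM in PPAR-a KO. In Cpt2L-/- Ppara KO it was at 90.1, 0.945, 2.04 and 6.596 CPM, so replicate 1 was the highest library of all 16. Its interval was -0.79 to 5.77, and its term moved from 2.49 to -0.43 without that library (edgeR adjusted p = 0.253 and 0.77). Plin5, which ties lipid droplets to mitochondria, had a term of -0.22 ± 0.804 (SE), or -1.36 ± 0.58 (SE; edgeR adjusted p = 0.107) without replicate 1. Acaa1b, a peroxisomal thiolase, had a term of 1.38 ± 0.53 (SE; edgeR adjusted p = 0.0646), with 71.9 to 263 CPM in PPAR-a KO and 783 to 2029 CPM in Cpt2L-/- Ppara KO. Of the 16 fits that left out 1 library it passed in that without replicate 1 of PPAR-a KO (1.59; edgeR adjusted p = 0.0409). The intervals of Angptl4, an inhibitor of lipoprotein lipase, and Creb3l3, a fasting transcription factor, were -1.12 to 0.43 and -0.902 to 0.12. Without replicate 1 of Cpt2L-/- Ppara KO the term of Creb3l3 was -0.548 (edgeR adjusted p = 0.0576).

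**Figure D3:**
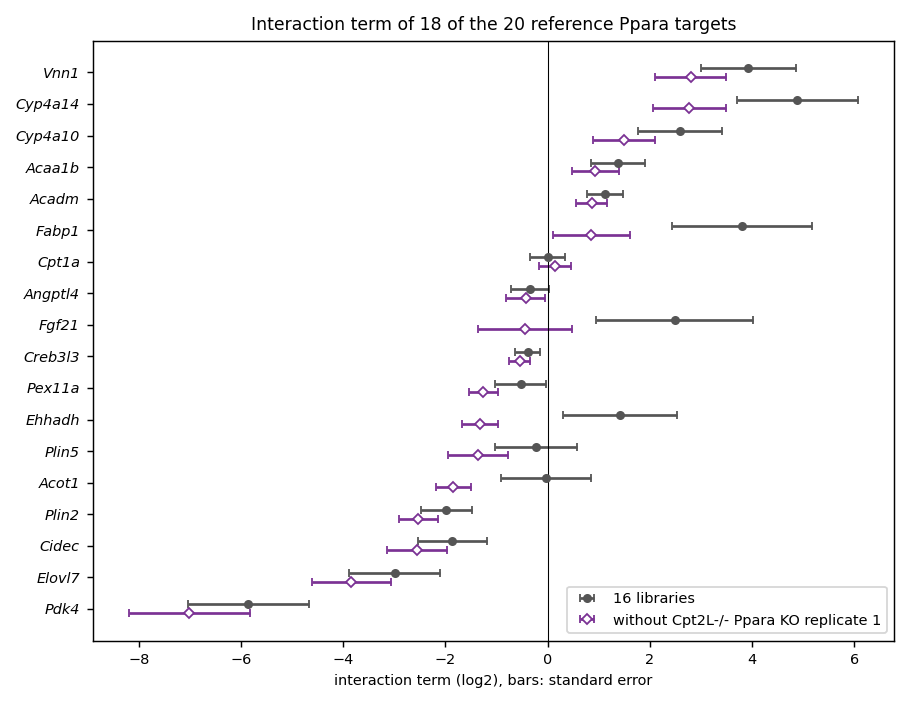
Interaction term (log2, x axis) of 18 of the 20 reference Ppara targets with bars of 1 standard error, from all 16 libraries (filled circles) and without replicate 1 of Cpt2L-/- Ppara KO (open diamonds). Leaving out that library lowers the term of Ehhadh from 1.41 to -1.33, that of Acot1 from -0.039 to -1.85 and that of Fabp1 from 3.796 to 0.85.

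The share called in each list below is to be read against the 24% of all genes tested, 12% in each direction. Among the enzymes of fatty acid breakdown, both signs occurred. Of 22 genes of mitochondrial fatty acid oxidation, 4 had a positive and 2 a negative interaction (27.3%, near the 24% of all genes), and the count was the same without replicate 1. Hadh, a dehydrogenase of the third step of the β-oxidation cycle, was at 403 to 482 CPM in control, 254 to 378 CPM in Cpt2 L-/-, 96.05, 89.5, 76.6 and 52.3 CPM in PPAR-a KO and 303, 119.9, 151 and 131 CPM in Cpt2L-/- Ppara KO. All Cpt2L-/- Ppara KO libraries were above all PPAR-a KO libraries, and the term was 1.67 ± 0.38 (SE; edgeR adjusted p = 0.00564). Acsl1, which activates long-chain fatty acids, had the opposite sign: it was at 1548 to 2911 CPM over the libraries with Ppara, 448 to 1229.8 CPM in PPAR-a KO and 302 to 376 CPM in Cpt2L-/- Ppara KO, and the last 2 groups did not overlap. Its term was -1.42 ± 0.39 (SE; edgeR adjusted p = 0.0153). Crat, the carnitine acetyltransferase, was at 194 to 339 CPM in Cpt2 L-/-, above 75.3 to 122 CPM in control, and at 50.5 to 59.5 CPM in PPAR-a KO and 98.4, 46.4, 45.3 and 49.4 CPM in Cpt2L-/- Ppara KO, with a term of -1.26 ± 0.34 (SE; edgeR adjusted p = 0.0143).

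Of 41 peroxisomal genes 6 were positive and 2 negative (19.5%), or 7 and 4 without replicate 1. The count was 10 positive without PPAR-a KO replicate 1, and 4 negative without Cpt2L-/- Ppara KO replicate 4. Ech1, an auxiliary enzyme of β-oxidation, had a term of 2.05 ± 0.58 (SE; edgeR adjusted p = 0.0179), which fell to 1.13 without replicate 1, and that library had 1060.1 CPM against 201 to 271 CPM in the other 3. Abcd2, a peroxisomal transporter of very long-chain acyl-CoA, was at 29.5 to 72.8 CPM in control, 9.86 to 23.1 CPM in Cpt2 L-/-, 0.382 to 1.22 CPM in PPAR-a KO and 1.08 to 2.39 CPM in Cpt2L-/- Ppara KO, and its term was 2.42 ± 0.52 (SE; edgeR adjusted p = 0.00394). Pecr, a peroxisomal reductase, was high in control alone at 115 to 205 CPM against 31.3 to 72.2 CPM in the other 12 libraries, and its term was 1.98 ± 0.27 (SE; edgeR adjusted p = 0.000271).

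Genes of ketone body synthesis and export had 6 positive and 2 negative interactions of 9 (88.9%), or 5 and 2 without replicate 1. Bdh1, which makes β-hydroxybutyrate, was at 396, 422, 519.8 and 576 CPM in control and at 193, 354, 345 and 267 CPM in Cpt2 L-/-. Bdh1 was at 125, 25.97, 20.6 and 41.6 CPM in PPAR-a KO and at 168, 95.1, 170.1 and 159 CPM in Cpt2L-/- Ppara KO. Replicate 1 of PPAR-a KO lay in the range of Cpt2L-/- Ppara KO and the other 3 lay below it, and the term was 2.19 ± 0.59 (SE; edgeR adjusted p = 0.0143). Slc16a6, a carrier that exports β-hydroxybutyrate, had the opposite pattern, lowest in control at 2.17 to 4.08 CPM and at 7.18 to 15.9 CPM in Cpt2 L-/-, 12.9, 55.1, 38.8 and 17.7 CPM in PPAR-a KO and 7.57 to 11.7 CPM in Cpt2L-/- Ppara KO. Its term was -3.45 ± 0.54 (SE; edgeR adjusted p = 0.000608). The positive count fell to 3 without control replicate 3, Cpt2 L-/- replicate 1 or PPAR-a KO replicate 3, and to 2 without Cpt2 L-/- replicate 4, while both negative genes kept their calls.

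Genes of the lipid droplet had 2 positive and 6 negative interactions of 20 (40%), or 2 and 7 without replicate 1. Besides Plin2, Pnpla2, the first lipase of triglyceride breakdown, was at 176, 193, 125 and 134 CPM in control and at 461.5, 429, 463 and 385 CPM in Cpt2 L-/-. Pnpla2 was at 140.1, 414, 329 and 90.7 CPM in PPAR-a KO and at 133, 175, 208 and 146 CPM in Cpt2L-/- Ppara KO. Replicates 2 and 3 of PPAR-a KO were near the Cpt2 L-/- level and replicates 1 and 4 in or under the control range, and the term was -2.02 ± 0.48 (SE; edgeR adjusted p = 0.00741). G0s2, an inhibitor of that lipase, had the opposite sign, 2.26 ± 0.62 (SE; edgeR adjusted p = 0.0157), with 9.32 to 18.2 CPM in PPAR-a KO below 20.2 to 72.3 CPM in Cpt2L-/- Ppara KO. Fitm1, which helps droplets form, was at 10.2 to 19.5 CPM with Ppara, 0.984, 0.0764, 0.202 and 0 CPM in PPAR-a KO and 9.42, 1.62, 2.04 and 2.06 CPM in Cpt2L-/- Ppara KO, with a term of 3.65 ± 0.86 (SE; edgeR adjusted p = 0.00714), or 2.68 without replicate 1. The negative count fell to 3 without control replicate 3, Cpt2 L-/- replicate 4 or PPAR-a KO replicate 3.

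Fatty acid uptake and binding genes had 2 positive and 3 negative terms of 18 (27.8%), and 1 and 6 without replicate 1 of Cpt2L-/- Ppara KO, while 4 were positive without replicate 2, 3 or 4 of that group. Slc27a1, a fatty acid transporter, was at 17.5, 30.3, 17.04 and 18.4 CPM in control and at 88.8, 164, 177 and 103 CPM in Cpt2 L-/-, and at 7.56 to 12.7 CPM over the 8 libraries without Ppara. No library of another group reached the Cpt2 L-/- level, and the term was -2.49 ± 0.36 (SE; edgeR adjusted p = 0.000351). Slc27a4, of the same family, was at 128 to 202 CPM in Cpt2 L-/- against 44.98 to 78.8 CPM in the other 12 libraries, with a term of -1.55 ± 0.27 (SE; edgeR adjusted p = 0.00125). Of 15 microsomal ω-oxidation genes 2 were positive and 2 negative (26.7%), or 1 and 4 without replicate 1. Cyp4a12b, a member of a family with close copies, was at 102 to 167 CPM in Cpt2 L-/- and 51.5, 15.9, 18.04 and 14.9 CPM in Cpt2L-/- Ppara KO, and its term was -2.12 ± 0.55 (SE; edgeR adjusted p = 0.0118), or -2.74 without replicate 1. Of 12 acyl-CoA thioesterases 2 were positive and 1 negative (25%), or 2 and 3 without replicate 1. Acot13 was lowest in PPAR-a KO, at 13.1 to 19.1 CPM against 31.4 to 92.9 CPM in the other 12 libraries, with a term of 1.91 ± 0.32 (SE; edgeR adjusted p = 0.000906).

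Fatty acid synthesis genes were mixed, with 4 positive and 3 negative terms of 15 (46.7%), or 3 and 3 without replicate 1. Acacb, the acetyl-CoA carboxylase whose product malonyl-CoA inhibits Cpt1a, was at 58.2, 99.04, 36.5 and 64.7 CPM in control and at 223, 223, 318 and 288 CPM in Cpt2 L-/-. Acacb was at 137, 136, 105 and 161 CPM in PPAR-a KO and at 32.5, 88.3, 130.01 and 109 CPM in Cpt2L-/- Ppara KO. It was highest in Cpt2 L-/-, with no overlap, and the term was -2.61 ± 0.47 (SE; edgeR adjusted p = 0.00155). Fasn, the fatty acid synthase, was at 81.2, 1229, 545 and 189.6 CPM in PPAR-a KO against 13.004 to 152 CPM in the other 12 libraries, so replicate 1 of PPAR-a KO overlapped them and replicates 2 to 4 did not, and the term was -2.996 ± 0.89 (SE; edgeR adjusted p = 0.0233). It lost its call without replicate 2 of PPAR-a KO, at -2.09 with an edgeR adjusted p of 0.0601. The 4 positive calls of this list were unstable, with none left without Cpt2 L-/- replicate 1 or PPAR-a KO replicate 3 and 1 left without control replicates 2, 3 or 4, Cpt2 L-/- replicate 4 or Cpt2L-/- Ppara KO replicate 3, and 2 without PPAR-a KO replicate 4. Elongases and desaturases had 4 positive and 1 negative calls of 14 (35.7%, the same without replicate 1), and the positive calls fell to 1 without control replicates 2, 3 or 4, Cpt2 L-/- replicates 1 or 4, PPAR-a KO replicate 3 or Cpt2L-/- Ppara KO replicate 3, and to 2 without Cpt2 L-/- replicate 3 or PPAR-a KO replicates 2 or 4.

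Of 25 genes of cholesterol synthesis and uptake, 13 were positive and none negative (52%, against 12% positive among all genes tested), with a median term of 1.68, and 11 were positive without replicate 1. Idi1, an isomerase of the isoprenoid branch, was at 2.98, 66.7, 16.99 and 29.95 CPM in control and at 3.31, 3.92, 3.22 and 3.04 CPM in Cpt2 L-/-. Idi1 was at 13.5, 4.35, 3.02 and 7.17 CPM in PPAR-a KO and at 19.7, 6.34, 13.2 and 27.7 CPM in Cpt2L-/- Ppara KO. Control replicate 1 was below the Cpt2 L-/- libraries, and control replicate 2 was the highest of the 16. The Cpt2 difference was -3.11 with Ppara and 1.24 without it, a term of 4.35 ± 0.96 (SE; edgeR adjusted p = 0.0052). Msmo1, a sterol methyl oxidase, was at 20.03, 286, 56.04 and 118 CPM in control and at 21.9, 22.2, 18.5 and 22.7 CPM in Cpt2 L-/-. Msmo1 was at 41.1, 27.9, 32.3 and 34.1 CPM in PPAR-a KO and at 50.5, 42.6, 68.9 and 94.9 CPM in Cpt2L-/- Ppara KO, and again control replicate 1 lay in the Cpt2 L-/- range. Its term was 3.42 ± 0.74 (SE; edgeR adjusted p = 0.00474). Mvk, the mevalonate kinase, and Stard4, a sterol carrier, had terms of 2.45 ± 0.45 (SE; edgeR adjusted p = 0.00171) and 2.49 ± 0.49 (SE; edgeR adjusted p = 0.00245). Control and Cpt2 L-/- did not overlap in Mvk, and in Stard4 they overlapped through control replicate 1. The count of 13 fell to 8 without Cpt2 L-/- replicate 1 and was 8 to 16 over the fits without 1 library. The median term of the list fell to 0.86 without control replicate 2.

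Bile acid genes had 5 positive and no negative terms of 19 (26.3%), or 8 and 1 without replicate 1. Cyp7a1, the rate-limiting enzyme of bile acid synthesis, was at 95.96, 439.8, 169.9 and 312 CPM in control and at 8.604, 12.8, 5.11 and 13.6 CPM in Cpt2 L-/-. Cyp7a1 was at 27.5, 7.18, 3.63 and 21.3 CPM in PPAR-a KO and at 25.8, 48.7, 18.2 and 5.08 CPM in Cpt2L-/- Ppara KO. Control was above all other libraries, and the other 3 groups overlapped, with a term of 5.37 ± 0.96 (SE; edgeR adjusted p = 0.00169). Akr1d1, a reductase of bile acid synthesis, was at 134 to 193 CPM in control, 5.37 to 10.9 CPM in Cpt2 L-/-, 35.9, 167, 104 and 84.2 CPM in PPAR-a KO and 15.3, 50.7, 70.9 and 37.4 CPM in Cpt2L-/- Ppara KO, with a term of 3.13 ± 0.599 (SE; edgeR adjusted p = 0.00228). Slco1a4, an importer of organic anions, was low in Cpt2 L-/- alone, at 10.95 to 29.996 CPM against 70.9 to 396 CPM in the other 12 libraries, and its term was 2.402 ± 0.47 (SE; edgeR adjusted p = 0.00243). Slco1b2, a bile acid importer, had a term of 2.15 ± 0.56 (SE; edgeR adjusted p = 0.0118).

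Drug-metabolizing cytochromes had 7 positive and 1 negative interaction of 23 (34.8%), or 9 and 1 without replicate 1. Cyp2c39 was at 165, 414, 192 and 436 CPM in control and at 3.67, 1.99, 2.699 and 1.41 CPM in Cpt2 L-/-. Cyp2c39 was at 1.97, 0.764, 1.68 and 1.56 CPM in PPAR-a KO and at 4.499, 6.55, 7.27 and 3.802 CPM in Cpt2L-/- Ppara KO. No other library was above 7.27 CPM, Cyp2c39 is 1 of the 8 genes at least 8-fold apart in control, and the term was 8.796 ± 0.56 (SE; edgeR adjusted p = 9.58e-08). Cyp2c38, a paralog with which it may share reads, was at 55.01 to 138 CPM in control against 2.3 to 32.997 CPM elsewhere, with a term of 5.696 ± 0.49 (SE; edgeR adjusted p = 3.73e-06). Cyp3a11, the main drug-metabolizing P450 of its subfamily, was lower in Cpt2 L-/- (724 to 1209 CPM) than in control (1509.7 to 2917 CPM) and higher in Cpt2L-/- Ppara KO (1514 to 3954 CPM) than in PPAR-a KO (544 to 1363 CPM), and neither pair overlapped. Its Cpt2 difference was -1.15 with Ppara and 1.57 without it, a term of 2.72 ± 0.47 (SE; edgeR adjusted p = 0.00117). Cyp2b10, the classical target of the receptor CAR, was at 64.3, 1443, 1211 and 661 CPM in PPAR-a KO, where replicates 2 to 4 were above all other libraries and replicate 1 lay inside the Cpt2L-/- Ppara KO range of 17.1 to 109 CPM. Its term was -4.098 ± 1.14 (SE; edgeR adjusted p = 0.0176), and the call was lost with no filter on low counts (edgeR adjusted p = 0.0628).

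**Figure D4:**
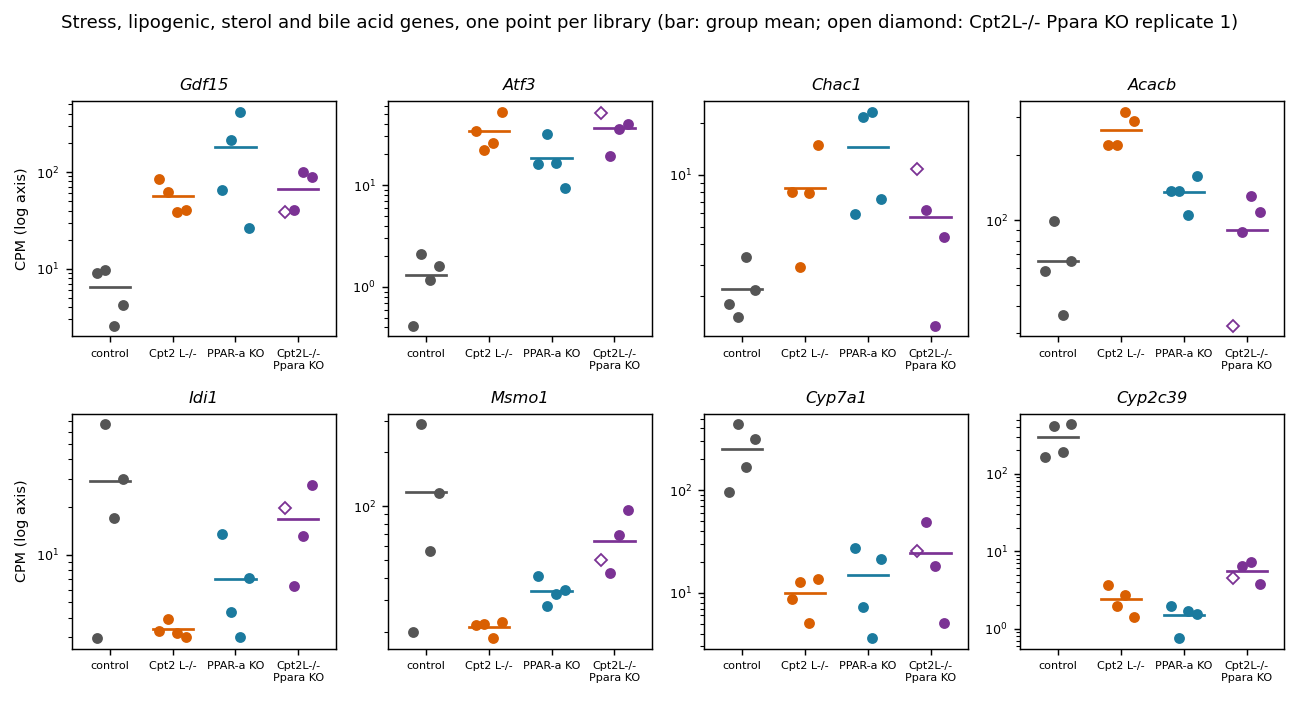
CPM of 8 genes on log axes, with 1 point per library, a bar at each group mean and an open diamond for replicate 1 of Cpt2L-/- Ppara KO. Gdf15 and Atf3 are lowest in all 4 control libraries, Acacb is highest in Cpt2 L-/-, and Cyp7a1 and Cyp2c39 are highest in control, at 95.96 to 439.8 and 165 to 436 CPM.

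Several stress genes were low in control and higher in the other 3 groups. Of 37 genes of the integrated stress response, in which the factor Atf4 raises amino acid transport and synthesis, 11 were negative and 1 positive (32.4%), or 13 and 1 without replicate 1. Over all genes tested 24% were called, with 12% negative and 12% positive. Their median Cpt2 difference was 0.75 with Ppara and -0.083 without it. Atf3, a transcription factor induced by Atf4, was at 0.417, 2.103, 1.16 and 1.59 CPM in control and at 34.2, 22.3, 26.1 and 52.2 CPM in Cpt2 L-/-. Atf3 was at 16.2, 31.7, 16.6 and 9.27 CPM in PPAR-a KO and at 51.2, 19.5, 35.7 and 39.4 CPM in Cpt2L-/- Ppara KO. All 12 libraries with a deletion were above control, and the term was -3.696 ± 0.59 (SE; edgeR adjusted p = 0.00075). Chac1, which breaks down glutathione, was at 1.79, 1.49, 3.34 and 2.16 CPM in control and at 7.92, 2.92, 7.87 and 14.9 CPM in Cpt2 L-/-. Chac1 was at 5.95, 21.6, 23.2 and 7.24 CPM in PPAR-a KO and at 10.8, 6.28, 1.34 and 4.397 CPM in Cpt2L-/- Ppara KO. Control overlapped both Cpt2 L-/-, through replicate 2 of that group, and Cpt2L-/- Ppara KO. The term was -3.27 ± 0.82 (SE; edgeR adjusted p = 0.0102). Slc7a1, an importer of cationic amino acids, was at 1.01 to 1.92 CPM in control and at 2.68 to 16.6 CPM in the other 12 libraries, with a term of -3.38 ± 0.63 (SE; edgeR adjusted p = 0.00175). Slc7a11, the cystine importer, had no count in any control library and was at 0.892, 0.747, 1.895 and 9.597 CPM in Cpt2 L-/-, 1.39, 0.0764, 1.21 and 7.44 CPM in PPAR-a KO and 2.11, 1.42, 0.233 and 1.01 CPM in Cpt2L-/- Ppara KO, so no fold against control is given. The exception was Vldlr, the lipoprotein receptor, which was lowest in PPAR-a KO at 1.83 to 2.62 CPM and had a term of 2.48 ± 0.698 (SE; edgeR adjusted p = 0.0174). Its call was lost with limma on both log2(FPKM + 1) and log2(FPKM + 0.1) (adjusted p = 0.119 and 0.0638).

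The promoters of 3 called genes of this list are shown because each holds the letters TGATG followed by CAA, on one strand or the other, an element of the kind bound by Atf4 with a C/EBP partner. Of 31 list genes with an entry searched in the RefSeq table (37 promoters), 6 held these letters, and of the 9 with a negative interaction and such an entry, 3 did. Of the 32851 promoters of 300 bases searched, 0.895% held them, a share of promoters and not of genes. The promoters of 1 chromosome were not searched. Vldlr, the 1 positive call of the list, held them too, as did Nupr1 and Pycr1, which were not called. The motif was chosen after the values were seen. Each sequence covers the 250 bases before the start in GRCm38.p6, read in the direction of the gene, with the match in capitals: Slc7a11 at chr3:50443614-50443863 (minus strand), Atf3 at chr1:191183334-191183583 (minus strand) and Chac1 at chr2:119350992-119351241 (plus strand).
Slc7a11: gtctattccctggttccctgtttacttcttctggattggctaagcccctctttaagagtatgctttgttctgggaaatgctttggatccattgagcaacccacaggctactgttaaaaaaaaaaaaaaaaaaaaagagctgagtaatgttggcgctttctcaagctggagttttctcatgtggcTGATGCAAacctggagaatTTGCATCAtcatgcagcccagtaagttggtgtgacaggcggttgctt
Atf3: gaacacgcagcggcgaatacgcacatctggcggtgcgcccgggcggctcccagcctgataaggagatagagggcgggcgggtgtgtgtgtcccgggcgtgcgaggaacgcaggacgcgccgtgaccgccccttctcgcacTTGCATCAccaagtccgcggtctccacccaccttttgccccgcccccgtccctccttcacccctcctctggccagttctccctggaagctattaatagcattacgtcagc
Chac1: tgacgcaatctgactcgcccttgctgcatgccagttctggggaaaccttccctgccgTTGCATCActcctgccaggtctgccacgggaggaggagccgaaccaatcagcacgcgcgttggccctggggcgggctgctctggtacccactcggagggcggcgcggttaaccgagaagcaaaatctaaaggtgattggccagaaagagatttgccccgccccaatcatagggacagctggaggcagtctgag
Slc7a11 holds a match on each strand, between 66 and 40 bases before the start, and the other 2 hold 1 each, from 110 bases before the start in Atf3 and from 193 in Chac1.

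Of 21 secreted factors of fasting and stress, 3 were positive and 2 negative (23.8%), as they were without replicate 1. Gdf15, a hormone released by stressed cells, was at 9.0, 9.77, 2.58 and 4.25 CPM in control and at 84.2, 61.8, 38.99 and 40.3 CPM in Cpt2 L-/-. Gdf15 was at 65.4, 216, 418 and 26.4 CPM in PPAR-a KO and at 38.6, 40.6, 99.7 and 89.3 CPM in Cpt2L-/- Ppara KO. Control was below all other libraries, PPAR-a KO replicates 2 and 3 were the highest, and the term was -4.58 ± 0.94 (SE; edgeR adjusted p = 0.00372). Inhbb, a subunit of activin, was at 3.35 to 11.3 CPM in control, 10.3 to 20.6 CPM in Cpt2 L-/-, 22.3, 114, 80.96 and 35.9 CPM in PPAR-a KO and 5.97 to 17.5 CPM in Cpt2L-/- Ppara KO, with a term of -3.53 ± 0.68 (SE; edgeR adjusted p = 0.00251). Enho, which encodes adropin, was high in control, at 12.9 to 52.9 CPM, with a term of 3.56 ± 0.63 (SE; edgeR adjusted p = 0.00136), and it overlapped PPAR-a KO and Cpt2L-/- Ppara KO through control replicate 3.

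Of 26 genes of the Nrf2 pathway and glutathione, 3 were positive and 5 negative (30.8%), or 3 and 4 without replicate 1. Srxn1, which repairs oxidized peroxiredoxin, was at 54.6 to 91.8 CPM in control, 407 to 819.9 CPM in Cpt2 L-/-, 783, 129, 137 and 426 CPM in PPAR-a KO and 299 to 599 CPM in Cpt2L-/- Ppara KO, all above control, with a term of -2.72 ± 0.64 (SE; edgeR adjusted p = 0.00713). Hmox1, the heme oxygenase, was at 10.1 to 19.1 CPM in control and at 26.1 to 98.3 CPM in the other 12 libraries, with a term of -2.46 ± 0.46 (SE; edgeR adjusted p = 0.0018). Gsta3, a glutathione transferase, was highest in control and had a term of 2.48 ± 0.31 (SE; edgeR adjusted p = 0.000111). Without PPAR-a KO replicate 1 the list had 8 positive and 5 negative genes. Of 23 chaperone and unfolded protein response genes 3 were positive and 2 negative (21.7%), or 3 and 3 without replicate 1. Pdia6, a disulfide isomerase, was low in Cpt2 L-/- alone, at 55.2 to 69.2 CPM against 162 to 435 CPM elsewhere, with a term of 1.73 ± 0.37 (SE; edgeR adjusted p = 0.00379), and it alone of Pdia6, Calr, Pdia3 and Syvn1 kept its call in each fit without 1 library. The 3 positive calls fell to 1 without control replicates 1 or 2, Cpt2 L-/- replicates 1, 2 or 3, PPAR-a KO replicates 2 or 3, or Cpt2L-/- Ppara KO replicates 2 or 4. Of 19 p53 and growth arrest genes 1 was positive and 2 negative (15.8%), among them Ccng1 with a term of 1.38 ± 0.34 (SE; edgeR adjusted p = 0.00935), and neither negative call was left without Cpt2 L-/- replicates 1 or 4.

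Nuclear subunits of the respiratory chain had 9 positive and no negative terms of 31 (29%), with a median of 0.598, and 5 were positive without replicate 1. Over all genes tested 24% were called, 12% of them positive terms. Cox7a2, a subunit of complex IV, was at 50.9 to 93.4 CPM over the other 12 libraries and 289, 168, 128 and 119 CPM in Cpt2L-/- Ppara KO, above all of them, with a term of 1.404 ± 0.36 (SE; edgeR adjusted p = 0.0103). The count depended on single libraries: it was 1 without Cpt2 L-/- replicate 4, 2 without control replicate 1, control replicate 2 or PPAR-a KO replicate 4, 3 without Cpt2 L-/- replicates 1 or 3, 5 without Cpt2L-/- Ppara KO replicate 2 and 15 without replicate 4 of that group. Of 18 mitochondrial carriers 4 were positive and 2 negative (33.3%), or 5 and 2 without replicate 1, and 2 were positive without control replicates 2 or 4, Cpt2 L-/- replicates 1, 3 or 4, or PPAR-a KO replicates 3 or 4. Slc25a34 was at 9.76 to 20.6 CPM with Ppara, 0.609 to 2.98 CPM in PPAR-a KO and 3.64 to 9.14 CPM in Cpt2L-/- Ppara KO, with a term of 2.02 ± 0.55 (SE; edgeR adjusted p = 0.0142). Slc25a47, a carrier restricted to liver, was at 820.5 to 978 CPM in control and at 1142, 5794, 3305 and 888 CPM in PPAR-a KO, and its term was -2.28 ± 0.605 (SE; edgeR adjusted p = 0.0128).

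Of 33 nuclear receptors and coregulators, 2 were positive and 7 negative (27.3%), the same count without replicate 1, with 4 positive without PPAR-a KO replicate 1 and 11 negative without Cpt2L-/- Ppara KO replicate 4. Ppard, the receptor closest to Ppara in its targets, was at 9.15 to 13.1 CPM in control, 10.6 to 17.97 CPM in Cpt2 L-/-, 11.1 to 19.7 CPM in PPAR-a KO and 4.499 to 11.3 CPM in Cpt2L-/- Ppara KO, with a term of -1.32 ± 0.36 (SE; edgeR adjusted p = 0.0155). Ncoa1, a coactivator of nuclear receptors, had a term of -1.34 ± 0.29 (SE; edgeR adjusted p = 0.00432). Ppargc1a, the coactivator that drives mitochondrial and gluconeogenic genes in fasting, was at 34.99, 33.1, 13.5 and 12.7 CPM in control and at 28.01, 22.3, 18.4 and 18.98 CPM in Cpt2 L-/-. Ppargc1a was at 13.1, 10.6, 6.32 and 7.104 CPM in PPAR-a KO and at 20.5, 38.7, 36.4 and 17.2 CPM in Cpt2L-/- Ppara KO. It was lower in PPAR-a KO than in Cpt2L-/- Ppara KO with no overlap, and the term was 1.697 ± 0.49 (SE; edgeR adjusted p = 0.0205). Of 24 gluconeogenic genes 4 were positive and 1 negative (20.8%), or 6 and 2 without replicate 1, and the positive count was 1 without Cpt2 L-/- replicate 1 and 2 without control replicate 4, Cpt2 L-/- replicate 4 or PPAR-a KO replicates 3 or 4.

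Clock genes were read as a check of the time of day. The labels give no hour, and the methods of the study run its 24 h fasts from 3 PM to 3 PM. Arntl, a core activator of the clock, was at 8.36, 41.5, 34.4 and 11.6 CPM in PPAR-a KO, so replicates 2 and 3 were high, against 1.49 to 14.3 CPM in the other 12 libraries. Its term was -1.56 ± 0.87 (SE; edgeR adjusted p = 0.198). The same 2 libraries were the highest of their group in Per1, Per2, Cry1 and Cry2, and in Pdk4, Gdf15 and Pnpla2 as given above, and the part of the hour of killing in these terms was not tested. Of the 14 clock genes Dbp, a clock output factor, was the 1 that passed with all 16 libraries, with a term of 1.898 ± 0.61 (SE; edgeR adjusted p = 0.0339). It lost the call in 8 of the 16 fits without 1 library, and the highest adjusted p by edgeR was 0.0735, without control replicate 4 (term 1.65). The others were control replicate 3 (1.71), Cpt2 L-/- replicates 1 and 4 (1.71 and 1.81), PPAR-a KO replicates 2 and 3 (1.84 and 1.66) and Cpt2L-/- Ppara KO replicates 3 and 4 (1.63 and 1.62). Other clock genes passed when a library was left out. Per1, a repressor of the clock with a term of -1.34 ± 0.52 (SE; edgeR adjusted p = 0.0677), passed in 4 of the 16 such fits, without PPAR-a KO replicate 1 or 4 (-1.53 and -1.57) or Cpt2L-/- Ppara KO replicate 3 or 4 (-1.55 and -1.61). Per3 moved from 1.75 ± 0.68 (SE; edgeR adjusted p = 0.0699) to 2.096 ± 0.503 (SE; edgeR adjusted p = 0.00876) without Cpt2L-/- Ppara KO replicate 1. Npas2 passed without replicate 2 of that group (-3.905) and Nr1d1 without replicate 4 (-1.16).

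The acute phase, cell cycle and matrix lists had shares of called genes under the 24% of all genes. Of 26 acute phase genes 1 was positive and 1 negative (7.69%), and 2 and 0 without replicate 1. Saa4, a constitutive serum amyloid, was at 152 to 274 CPM in control against 12.9 to 62.3 CPM elsewhere, with a term of 2.41 ± 0.36 (SE; edgeR adjusted p = 0.000526). Of 23 cell cycle genes 3 were positive and none negative (13%, against 12% positive among all genes), with Tk1, the thymidine kinase, high in control at 18.04 to 34.4 CPM and 2.32 to 9.19 CPM elsewhere and a term of 2.39 ± 0.49 (SE; edgeR adjusted p = 0.00335). Of 22 matrix genes 1 was positive and 3 negative (18.2%). Col4a1 and Col4a2, the chains of basement membrane collagen, were higher in Cpt2 L-/- and PPAR-a KO than in either other group: Col4a1 was at 34.4 to 51.9 CPM in control, 76.9 to 146 CPM in Cpt2 L-/-, 87.96 to 140.1 CPM in PPAR-a KO and 14.9 to 51.4 CPM in Cpt2L-/- Ppara KO. Their terms were -2.89 ± 0.42 (SE; edgeR adjusted p = 0.000367) and -2.902 ± 0.49 (SE; edgeR adjusted p = 0.000944).

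**Figure D5:**
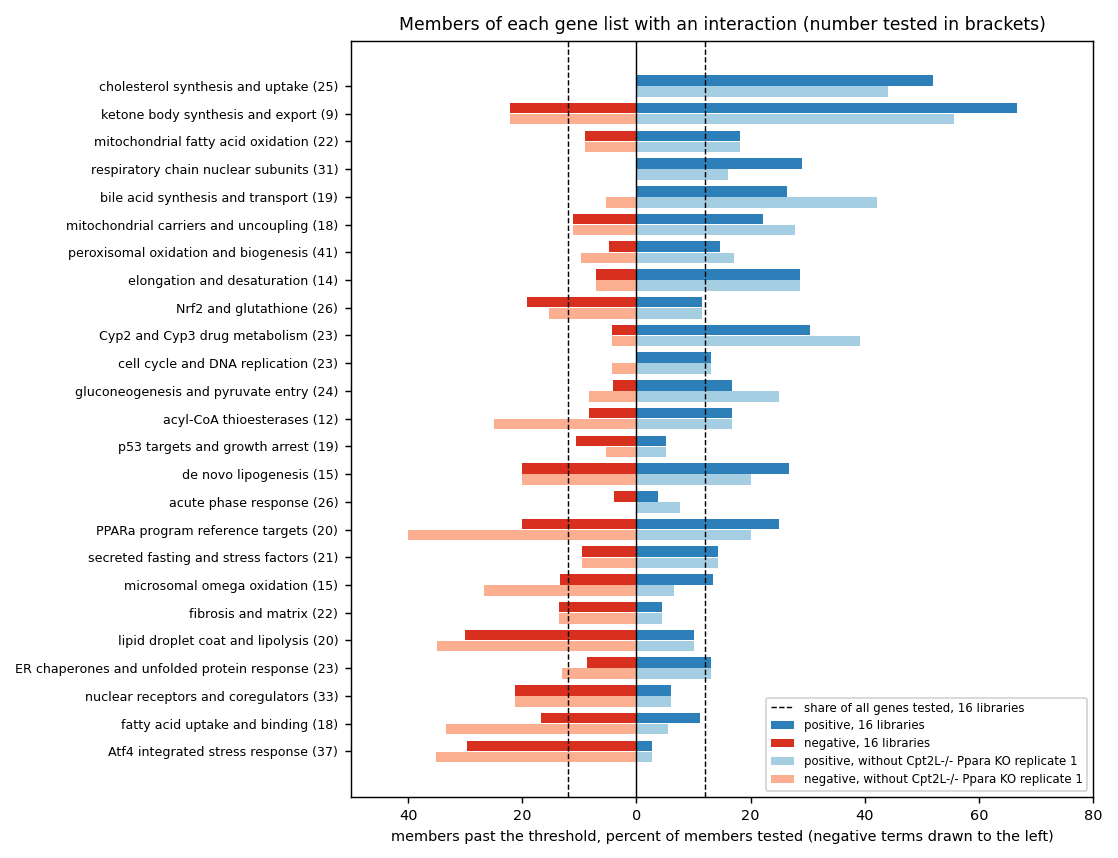
Share of the tested members of each gene list with a positive (right) or negative (left) interaction, in percent, from 16 libraries (dark bars) and without replicate 1 of Cpt2L-/- Ppara KO (light bars), with dashed lines at the 12% of all genes in each direction. Cholesterol synthesis has bars to the right alone (13 of 25 and 11 of 25), the integrated stress response mostly to the left (11 and 13 of 37 negative), and the reference targets of Ppara gain negative members (4 to 8 of 20) when the library is left out.

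Markers of liver cell types were read beside these lists. Of 12 hepatocyte markers, 2 were positive and none negative (16.7%), and their summed level was 78088 to 99462 CPM in control, 47093 to 71835 CPM in Cpt2 L-/-, 73589 to 104858 CPM in PPAR-a KO and 51782 to 73564 CPM in Cpt2L-/- Ppara KO. Of 11 Kupffer cell markers 1 was called (9.09%), of 12 markers of lipid-associated macrophages 3 (25%) and of 10 stellate cell markers 2 (20%). Of 10 endothelial markers 3 were called (30%), of 7 cholangiocyte markers 1 (14.3%) and of 3 lymphocyte markers tested 1 (33.3%). None of 8 neutrophil and erythroid markers was called. The share over all genes tested was 24%, and these lists are short. Vsig4 of Kupffer cells and Lyve1 of sinusoidal endothelium had terms of opposite sign, 1.46 ± 0.31 (SE; edgeR adjusted p = 0.00419) and -2.36 ± 0.53 (SE; edgeR adjusted p = 0.00518). The 3 endothelial calls themselves went both ways, with Vwf negative like Lyve1, at -1.64 ± 0.46 (SE; edgeR adjusted p = 0.0168), and the Fc receptor Fcgr2b positive, at 1.41 ± 0.31 (SE; edgeR adjusted p = 0.00483). Of the 9 markers of adipocytes and pancreas only 1 reached the filter, Cela1, a pancreatic elastase, with a positive call (1.38 ± 0.47 (SE; edgeR adjusted p = 0.0399)) that was lost in 15 of 27 alternatives, among them that without replicate 1 of Cpt2L-/- Ppara KO (edgeR adjusted p = 0.0865). The positive count was 3 without PPAR-a KO replicate 1 for the macrophage list, and likewise for the stress response, p53 and acute phase lists, each of which had 1. Neither negative macrophage call was left without control replicates 1, 2 or 4, Cpt2 L-/- replicates 1 or 4, or Cpt2L-/- Ppara KO replicates 2 or 3. The part of these cells in the interactions was not tested.

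The largest negative terms included genes of stratified epithelium, a tissue not found in liver. Lor, a protein of the cornified layer of skin, was at 2.46, 1.298, 18.6 and 784 CPM in PPAR-a KO against 0.582 to 2.52 CPM in the other 12 libraries, so replicate 4 was far above all others and replicate 3 came next. A list of 15 such genes, chosen after the values were seen, summed to 2682 CPM in that library and to at most 214 CPM in any library of the other 3 groups. Without that library the term of Lor was -3.43 in place of -8.17, that of Evpl was -0.99 in place of -4.76, that of Sbsn -3.096 in place of -5.48, that of Ly6d -2.097 in place of -6.103 and that of Aqp3 -3.59 in place of -7.71. Evpl, Ly6d and Aqp3 lost their calls without it (edgeR adjusted p = 0.271, 0.124 and 0.204). Evpl lost its call in 13 of the 16 fits without 1 library, and Sbsn in that without replicate 1 of Cpt2L-/- Ppara KO (-5.32; adjusted p = 0.051). Aqp3 and Ly6d were also higher in Cpt2 L-/-, at 2.01 to 9.82 and 15.7 to 32.6 CPM, than in control, at 0.101 to 0.238 and 0.809 to 3.63 CPM. Over all genes, 3142 were called without PPAR-a KO replicate 4.

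Other large negative terms did not rest on that library. Casz1, a zinc finger transcription factor, was at 8.604, 9.71, 7.695 and 12.2 CPM in Cpt2 L-/- against 0.759 to 1.15 CPM in control, 1.699 to 6.43 CPM in PPAR-a KO and 0.337 to 1.69 CPM in Cpt2L-/- Ppara KO, so Cpt2 L-/- was above all others, and its term was -4.799 ± 0.61 (SE; edgeR adjusted p = 0.000126). Zfp423, another zinc finger factor, was at 3.04, 3.05, 5.91 and 5.802 CPM in Cpt2 L-/- against 0.0678 to 1.53 CPM in the other 12 libraries, with a term of -5.43 ± 0.86 (SE; edgeR adjusted p = 0.000676). Zbtb7c and Sdcbp2 had terms of -4.63 ± 0.93 (SE; edgeR adjusted p = 0.00295) and -5.12 ± 1.09 (SE; edgeR adjusted p = 0.00395), both at low levels, with 0.119 to 0.556 and 0 to 0.253 CPM in control. Among the largest positive terms, Akr1c6, a hydroxysteroid dehydrogenase, was at 476, 478, 755 and 585 CPM in control and at 28.01, 14.5, 22.2 and 24.6 CPM in Cpt2 L-/-. Akr1c6 was at 330.1, 119, 40.05 and 58.6 CPM in PPAR-a KO and at 119, 184, 241 and 407 CPM in Cpt2L-/- Ppara KO. It was lowest in Cpt2 L-/- and highest in control, with no overlap, and its term was 5.48 ± 0.76 (SE; edgeR adjusted p = 0.000289). Rps3a3, Cd1d2, Gm6768 and Gm6472 were high in control alone, with terms of 7.39, 5.402, 5.61 and 6.34, as were Gm10020, Gm12751 and Ankrd55 (6.34, 5.53 and 6.12). Rps3a3 and some of the other models resemble expressed genes, so that their reads may not be assigned with certainty. Of the 12 largest positive terms, 11 belonged to genes with every control library above the other 12. A high control level raises the term by its definition, so this shape follows in part from the choice by size.

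Of the genes called, 36 had a group at or under 3 counts in every library, and their levels are given here in place of fitted terms. Zfp125, a zinc finger gene, had no count in control and 0.632 to 2.95 CPM in each of the other 12 libraries. Hcar2, the receptor of β-hydroxybutyrate and nicotinic acid, was at 0, 0, 0 and 0.1702 CPM in control and at 0.351 to 6.72 CPM in the others. Rufy4 had no count in any PPAR-a KO library and was at 0.0675 to 0.703 CPM in Cpt2L-/- Ppara KO, 3.04 to 5.23 CPM in Cpt2 L-/- and 0.814 to 1.85 CPM in control. The call of Rufy4 was lost in 14 of 27 alternatives with its direction kept, and its direction changed in 2 more. Ube2u was at or under the floor in Cpt2 L-/- alone, at 0.105 to 0.172 CPM against 0.403 to 3.28 CPM elsewhere. The floor of 3 counts was 0.134 to 0.229 CPM, depending on the library.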

How the data were processed

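Liver RNA of 24 fasted mice was sequenced, and the 16 libraries of the 2 x 2 design were used. The deposited table holds raw counts per gene and, beside them, FPKM values, both made by the authors from reads aligned to the mouse genome. The submitters' processing notes list Bowtie 0.12.2, TopHat, STAR 2.5, STAR-Fusion, HTSeq 0.6.1, DESeq2 and edgeR, and the builds mm8 and mm9, without saying which made these files, while the gene coordinates in the table are those of GRCm38. How reads shared by similar genes were counted is not given in the sources used here.

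Counts were fitted with edgeR 4.0.16 in R 4.3.3 (TMM factors, a filter with a minimum count of 10 and total of 15, robust quasi-likelihood test) with terms for Cpt2, Ppara and their product. The product was tested, with Benjamini-Hochberg adjustment over all genes tested and a threshold of 0.05. A standard error is the log2 term divided by the square root of its F. Groups came from the labels. Nothing states whether libraries came from separate litters or preparation days, so p-values measure the spread between these animals. Gene lists and members were chosen with earlier results of these data known. Genes were named by rule: the 12 largest positive and the 12 largest negative terms with a mean of at least 1 CPM, Ppara, Cpt2, the 20 reference targets, up to 4 called members of each list, control-only genes and clock genes. Of 162 genes so named, 136 passed and 98 kept their call in each of 16 fits without 1 library, and values are given chiefly for these and for the targets. Other members of a list that are named were chosen after their values were seen. A gene with a group of at most 3 counts in every library is given by level, and intervals cover the model's error at 95%. Checks were alternative scaling, no filter, DESeq2 1.42.0, all 24 libraries, the replicate number as a block, limma 3.58.1 on log2(FPKM + 1) and log2(FPKM + 0.1), a term of at least 1, no robust step, and each library left out. No pair of replicates agreed within sampling noise (24 pairs; chi-square per degree of freedom 30.3 to 266.01). The fit was tested on simulated data for the interaction (13461 genes), where edgeR recovered 17 of 100 terms of size 1 and 83 of 100 of size 2 on the log2 scale, with 6 false among 106 calls. DESeq2 recovered 23 and 83 of them, with 18 false among 124 calls (14.5%). A far smaller share of genes was changed in the simulation than was called in the data, so its rates need not hold for the data. Sequences were taken from the RefSeq promoter table. Some named genes are not reported here, though the counts include them.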

Additional observations from a re-analysis of the deposited data

Results flagged for a closer look

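The 3270 genes past the threshold are listed here because the Cpt2 difference with Ppara and that without it differed by the test of the difference itself. Single libraries were also far from the other 3 of their group, by a gap that took up most of the range of the group, and chance gives such a gap in about 1 in 20 groups. In replicate 1 of Cpt2L-/- Ppara KO these were high values of Acaa1b (2029 CPM), Cpt2 (122 CPM), Crat (98.4 CPM), Cyp4a10 (1579.5 CPM), Cyp4a12b (51.5 CPM), Cyp4a14 (3156 CPM), Ehhadh (3512 CPM) and Fitm1 (9.42 CPM). In the same group Bdh1 was low in replicate 2 (95.1 CPM), Casz1 was low in replicate 2 (0.337 CPM) and Vsig4 was low in replicate 4 (21.3 CPM). In PPAR-a KO, replicate 1 was high in Acot13 (19.1 CPM) and low in Crat (50.5 CPM), and replicate 4 was high in Evpl (45.7 CPM) and Ly6d (11.7 CPM). In Cpt2 L-/-, Cpt1a was low in replicate 1 (1233 CPM), Fcgr2b was low in replicate 2 (21.8 CPM), and replicate 3 was low in Msmo1 (18.5 CPM) and Zfp125 (0.632 CPM) and high in Slco1b2 (568 CPM). In control, replicate 1 was low in Ppara (214 CPM) and Slco1b2 (843 CPM), replicate 2 was high in Slc27a1 (30.3 CPM), and replicate 4 was high in Acot13 (38.6 CPM) and Hcar2 (0.1702 CPM) and low in Angptl4 (161 CPM) and Cpt2 (86.1 CPM).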

How the results depend on the processing

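The count of 3270 genes stayed within 1.5 times under every alternative run. It was 3270 with relative log expression factors, 2604 with no filter, 3866 with DESeq2, 4087 with 24 libraries in the fit, 2823 and 2724 with limma on log2(FPKM + 1) and log2(FPKM + 0.1), 2444 at a term of at least 1 and 3264 without the robust step. Leaving out 1 library gave 2396 (Cpt2 L-/- replicate 4) to 3767 (PPAR-a KO replicate 1), with 1177 to 1882 positive and 1219 to 1953 negative. Replicate numbers do not pair the libraries: of 24 correlations between same-numbered libraries of different groups, -0.098 to 0.23, 6 were over 0.1. With the replicate number as a block 3307 genes passed. Of the terms of named genes recomputed, 3935 stayed on their side of the threshold, 391 kept the direction and no longer passed, 41 newly passed in the same direction and 5 changed sign with a call in at least 1 of the 2 fits. Of the 3935, 37 changed sign without a call in either fit, for Cpt1a, Cpt2, Acot1, Fgf21, Plin5, Ciart and Ehhadh. With no filter on low counts 23 named genes lost their calls, among them Cyp2b10, Cyp4a10, Dbp, Elovl7, Evpl, Fasn and Sbsn. With limma on log2(FPKM + 1) and log2(FPKM + 0.1) 22 and 21 did. Among those lost on at least 1 of the 2 scales were Dbp, Elovl7, Evpl, Lor, Sbsn, Slc7a11 and Vldlr. With the replicate block 12 did, among them Dbp, Evpl, Lor and Rufy4. The changes of sign with a call were Ehhadh without replicate 1 of Cpt2L-/- Ppara KO (-1.33), also with PPAR-a KO replicate 4 (-1.44) or replicate 1 (-1.19) left out, pairs chosen after seeing the data, and Rufy4 with limma (-0.70 and -0.45), a gene with no count in PPAR-a KO, so that its fitted term depends on the constant added to the values. The term of Ehhadh was 1.296 without Cpt2 L-/- replicate 1 and up to 1.78 without replicate 2 of Cpt2L-/- Ppara KO. With 4 libraries a group, simulated terms of size 1 were mostly missed. The simulation changed a far smaller share of genes than was called here, so the share missed in these data is not known. Absence from the calls is no evidence of an equal response.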
